A study of Mus musculus with 11 samples.

Results

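The nuclear genes of mitochondrial complex I were examined in mouse liver, taken as the protein-coding genes whose symbol begins with Nduf. The rule gave 46 genes among the 32035 genes with a measured transcript, of which 21743 were protein-coding. By their known place in the enzyme, 36 of the 46 encode complex I subunits, with 7 core and 29 accessory subunits, and 8 encode assembly factors (Ndufaf1 to Ndufaf8). The remaining 2 genes are Ndufa4, whose product is now assigned to cytochrome c oxidase (complex IV), and its paralog Ndufa4l2, which is known to be induced by low oxygen.

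Complex I oxidises NADH, passes the electrons to ubiquinone and pumps protons across the inner mitochondrial membrane. Its membrane arm is built around subunits encoded by the mtDNA, while the redox centres sit on nuclear-encoded core subunits of the matrix arm, and accessory subunits surround this core. Assembly factors help to build the complex and are absent from the finished enzyme. Liver depends on oxidative phosphorylation for gluconeogenesis and urea synthesis.

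RNA of whole liver was sequenced in 11 female mice of 2 conplastic strains, 1 library per mouse. Both strains were backcrossed to C57BL/6J and differ in the inbred donor of their mtDNA. By the genotyping of the study they share nearly all of its nuclear genome, with a few markers that differed in B6-mtBPL mice. The Nduf genes themselves thus come from nearly the same nuclear background in all mice. B6-mtALR mice (C57BL/6J-mtALR/J) carry a mutation in mt-Nd2, and 4 of them were 3 months (replicates 4 to 7) and 3 were 5 months of age (replicates 1 to 3). B6-mtBPL mice (C57BL/6J-mtBPL/J) carry a mutation in mt-Nd5, and 2 were 3 months (replicates 1 and 2) and 2 were 4 months of age (replicates 3 and 4). Both mutated genes encode complex I subunits, and no mouse with the mtDNA of C57BL/6J itself was analysed here. Age and strain were not balanced, since no B6-mtBPL mouse was 5 months and no B6-mtALR mouse was 4 months of age.

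Total estimated counts ranged from 18145815 to 25074045 per mouse. The label of liver fitted the hepatocyte transcripts, as 6 of 6 hepatocyte markers (Alb, Apoa1, Ttr, Apob, Cps1 and Cyp2e1) summed to 105278 to 126655 CPM (counts scaled to the library size) in every mouse, while 5 transcripts of skeletal muscle and adipose tissue summed to at most 0.590 CPM. Libraries differed in how expression ran with transcript length. The slope of relative log2 CPM on log10 transcript length was 0.40 and 0.49 in the B6-mtBPL mice of 3 months and 0.08 and 0.21 in those of 4 months. In B6-mtALR mice it was -0.08, -0.42, 0.16 and -0.20 at 3 months (replicates 4 to 7) and -0.40, -0.40 and 0.16 at 5 months (replicates 1 to 3). The slope was negative in 5 of the 7 B6-mtALR mice and positive in all 4 B6-mtBPL mice, and replicate 6 of 3 months and replicate 3 of 5 months stood apart from their groups. Nduf transcripts are short, with a median length of 737 bases (379 to 2661 bases) against 2388 bases for all genes tested, so this difference is given beside the results.

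All 46 genes were detected in every liver. Levels are compared between genes in TPM, which scales the counts for transcript length and library size. Ndufa4 was the highest with 891 ± 129 TPM (SD, n = 11), followed by Ndufb9 of the distal membrane arm with 469 ± 39.3 TPM and Ndufa6 of the matrix arm with 407 ± 36.8 TPM. At the lower end were Ndufaf7, a methyltransferase that acts in assembly, with 9.90 ± 1.78 TPM, Ndufaf5, which hydroxylates Ndufs7, with 7.5 ± 0.987 TPM, and Ndufa4l2 with 1.31 ± 0.299 TPM. The 36 subunits had a median of 172 TPM and spanned 18.7 (Ndufa11) to 469 TPM. The 8 assembly factors lay between 7.5 and 49.9 TPM with a median of 22.4 TPM. Only 2 subunits, Ndufa11 and Ndufb4 (45 ± 7.95 TPM), lay below the highest assembly factor, Ndufaf8 (49.9 ± 5.40 TPM).

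**Figure D1:**
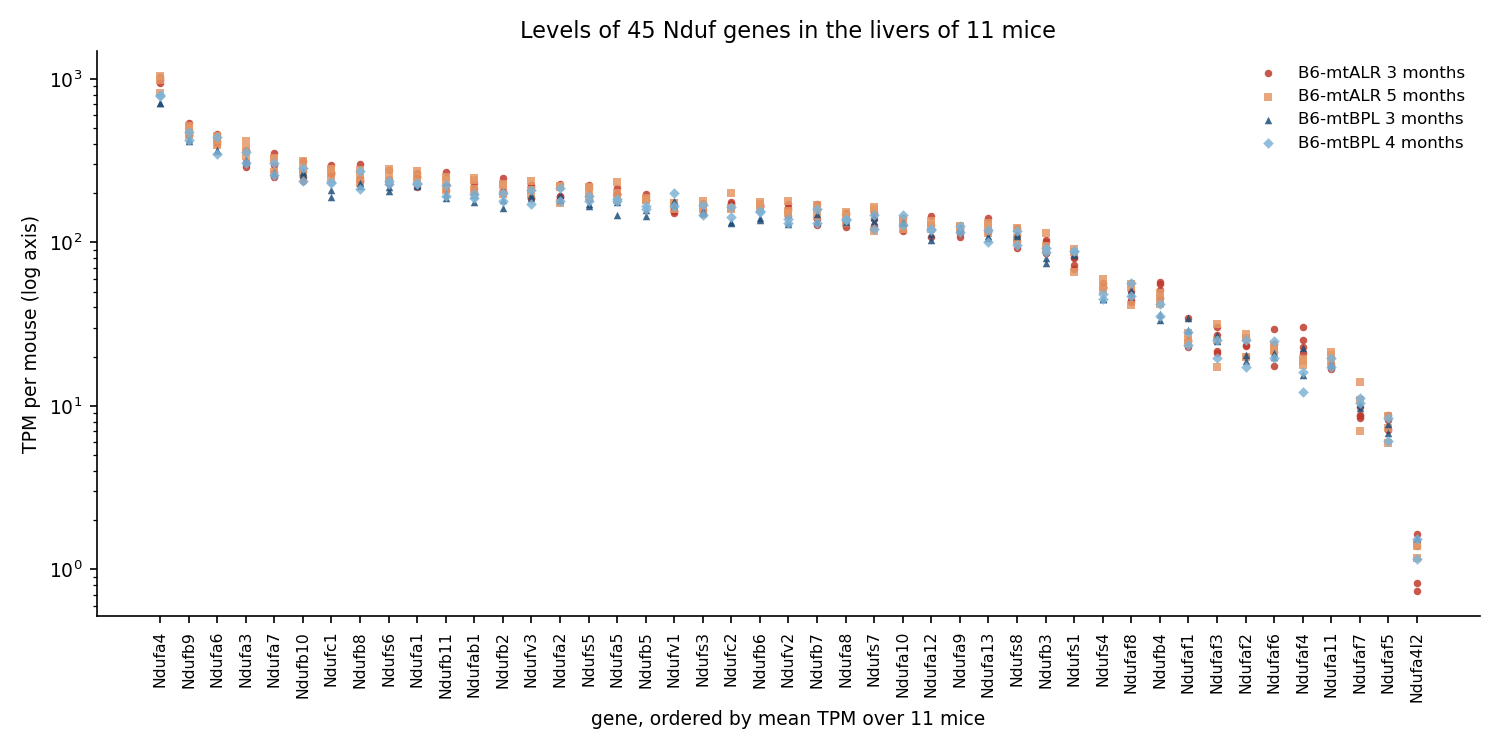
TPM of 45 of the 46 Nduf genes (log axis), ordered by the mean over 11 mice, with 1 point per mouse and a colour and symbol per group. Ndufa4 stands highest at 708 to 1036 TPM and Ndufa4l2 lowest at 0.741 to 1.64 TPM, with assembly factors below nearly all subunits.

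The levels within the enzyme differed by role. The 7 core subunits had a median of 151 TPM, and the lowest of them was Ndufs1, which carries iron-sulfur clusters of the NADH-oxidising module, with 81.7 TPM. Accessory subunits covered a wider range, with medians of 200 TPM for the 10 genes of the matrix arm, 162 TPM for the 9 of the proximal membrane arm and 189 TPM for the 10 of the distal membrane arm. Sequence shared with other genes limits how surely reads were placed for 9 of the 46 genes, in which over 20% of the stretches of 31 bases also occur in another gene. Ndufb4 shared 31.6% of them, and the genes it shares with, Ndufb4c among them, held 60.9% of the counts of all these genes and Ndufb4 together. For Ndufa12 this was 20.7% and 75.3%, with Gm15920 sharing most, so the levels of both genes are uncertain. Ndufb6 shared 34.4% with Smim27, which held 5.3% of the counts of both.

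The first comparison asked whether expression of the Nduf genes differed between the strains. The 8 mice of 3 to 4 months were fitted with age and strain by the quasi-likelihood test of edgeR, so that the strain term sets the 4 B6-mtALR mice of 3 months against the 2 B6-mtBPL mice of that age, while the 2 B6-mtBPL mice of 4 months inform the spread alone. In this fit 45 of the 46 genes were higher in B6-mtALR mice, with a median log2 fold change of 0.37 against -0.00 over the 13380 genes tested. At an adjusted p-value under 0.05, 7 of the 46 were upregulated and 0 downregulated, where 0.934% of all genes tested were upregulated. An unadjusted p-value under 0.05 was found for 28 of the 46 (60.9%) and for 21.3% of all genes. DESeq2 called 18 of the 46 upregulated, where it called 4.10% of all genes.

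The number of genes called changed with transcript length and with the mice included. With each mouse's length trend removed, 32 of the 46 genes were higher in B6-mtALR mice with a median log2 fold change of 0.08, and edgeR called 0 of them, with 8 (17.4%) at an unadjusted p-value under 0.05 against 15% of all genes. Without replicate 4 or 5 of B6-mtALR at 3 months 0 of the 46 passed (24 at an unadjusted p-value under 0.05 in each fit), where edgeR called 8 and 7 of all genes. Without replicate 6 of B6-mtALR 15 of the 46 were upregulated, where 1.67% of all genes were. Leaving out replicate 1 or 2 of B6-mtBPL set a single mouse of 3 months against the B6-mtALR mice, with the spread taken from the other groups, and gave 0 of the 46 (18 and 13 unadjusted) and 2 and 0 of all genes. In a fit of the same 8 mice with no age term, which averages both ages of B6-mtBPL, 43 of the 46 were higher with a median of 0.28, and 2 (Ndufb4 and Ndufa4) passed where 0.575% of all genes were upregulated.

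The 7 genes that passed were Ndufa4, Ndufc2, Ndufc1, Ndufb5, Ndufb6, Ndufa5 and Ndufb4. Each is described below in CPM, scaled by TMM over the 11 mice, with means over all 4 mice per strain. Over 23 alternative fits, the log2 fold change ran from 0.19 to 0.75 for Ndufa4 and from 0.21 to 0.64 for Ndufc2. It ran from 0.12 to 0.72 for Ndufc1, 0.13 to 0.53 for Ndufb5 and 0.11 to 0.54 for Ndufb6. For Ndufa5 it ran from 0.1 to 0.68 and for Ndufb4 from 0.3 to 0.79. Values with the length trend taken out are given below for Ndufa4 and Ndufb4 alone of the 7.

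Ndufa4 (chromosome 6, 11900292 to 11907497, GRCm38) encodes the subunit now placed in complex IV. Its level in the B6-mtALR mice was 279, 280, 230 and 258 CPM at 3 months (replicates 4 to 7) and 247, 278 and 205 CPM at 5 months. The B6-mtBPL mice had 162 and 159 CPM at 3 months and 197 and 200 CPM at 4 months. Every B6-mtALR mouse was above every B6-mtBPL mouse. The means were 261 ± 23.4 CPM (SD, n = 4) and 179 ± 21.9 CPM (n = 4), and the log2 fold change was 0.70 ± 0.11 (SE, edgeR adjusted p = 0.0294). With the length trend taken out it was 0.33 ± 0.10 (adjusted p = 0.187).

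Ndufc2 (chromosome 7, 97400003 to 97407802) and Ndufc1 (chromosome 3, 51404677 to 51408988) encode small accessory subunits of the proximal membrane arm. Ndufc2 stood at 68.7, 63.6, 60.5 and 67.1 CPM in B6-mtALR mice of 3 months and at 74.6, 64.6 and 57.7 CPM at 5 months. The B6-mtBPL mice had 42.5 and 42.0 CPM at 3 months and 54.9 and 51.0 CPM at 4 months. No B6-mtALR mouse overlapped with a B6-mtBPL mouse, and the log2 fold change was 0.61 ± 0.11 (SE, edgeR adjusted p = 0.0302). Ndufc1 reached 40.1, 36.7, 35.2 and 43.2 CPM in B6-mtALR mice of 3 months, against 25.4 and 23.6 CPM in B6-mtBPL mice of 3 months and 30.1 and 33.3 CPM at 4 months. At 5 months the values were 40.7, 41.2 and 33.1 CPM, the lowest of which fell just below the highest B6-mtBPL mouse. The log2 fold change of Ndufc1 was 0.66 ± 0.12 (SE, edgeR adjusted p = 0.0327).

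The distal membrane arm, which holds the mt-Nd4 and mt-Nd5 subunits at its centre, gave 3 of the 7 genes. Ndufb5 (chromosome 3, 32736990 to 32751566) had 78.9, 81.7, 72.6 and 76.6 CPM in B6-mtALR mice of 3 months and 53.5, 54.9, 63.2 and 65.1 CPM in B6-mtBPL mice (replicates 1 to 4). At 5 months it had 74.1, 82.0 and 72.0 CPM. The strains did not overlap, with a log2 fold change of 0.51 ± 0.10 (SE, edgeR adjusted p = 0.0386). Ndufb6 (chromosome 4, 40270591 to 40279421) had 63.3, 62.8, 56.0 and 64.6 CPM in B6-mtALR mice of 3 months, 62.2, 66.3 and 55.9 CPM at 5 months and 43.8, 42.7, 51.9 and 54.0 CPM in B6-mtBPL mice. Here too the strains were separate, by 55.9 against 54.0 CPM at the closest, and the log2 fold change was 0.50 ± 0.11 (SE, edgeR adjusted p = 0.0428). Ndufb4 (chromosome 16, 37647170 to 37654453) had 30, 33.1, 23.1 and 29.5 CPM in B6-mtALR mice of 3 months, 27.5, 26.7 and 23.0 CPM at 5 months and 18.4, 17.1, 19.2 and 20.8 CPM in B6-mtBPL mice. Its log2 fold change was 0.70 ± 0.15 (SE, edgeR adjusted p = 0.0442) and 0.46 ± 0.12 (adjusted p = 0.158) with the length trend taken out.

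Ndufa5 (chromosome 6, 24518666 to 24528013), an accessory subunit of the ubiquinone module in the matrix arm, had 50.1, 46.6, 41.7 and 50 CPM in B6-mtALR mice of 3 months. At 5 months it had 53.2, 44.7 and 44.0 CPM, and the B6-mtBPL mice had 29.2, 34.1, 39.3 and 40.5 CPM. All B6-mtALR mice lay above all B6-mtBPL mice, and the log2 fold change was 0.57 ± 0.12 (SE, edgeR adjusted p = 0.0437). A transcript annotated as processed, without a coding sequence, held 53.2% to 58.5% of the counts of Ndufa5 per mouse. With protein-coding transcripts alone the log2 fold change was 0.53 ± 0.13 (adjusted p = 0.0645).

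**Figure D2:**
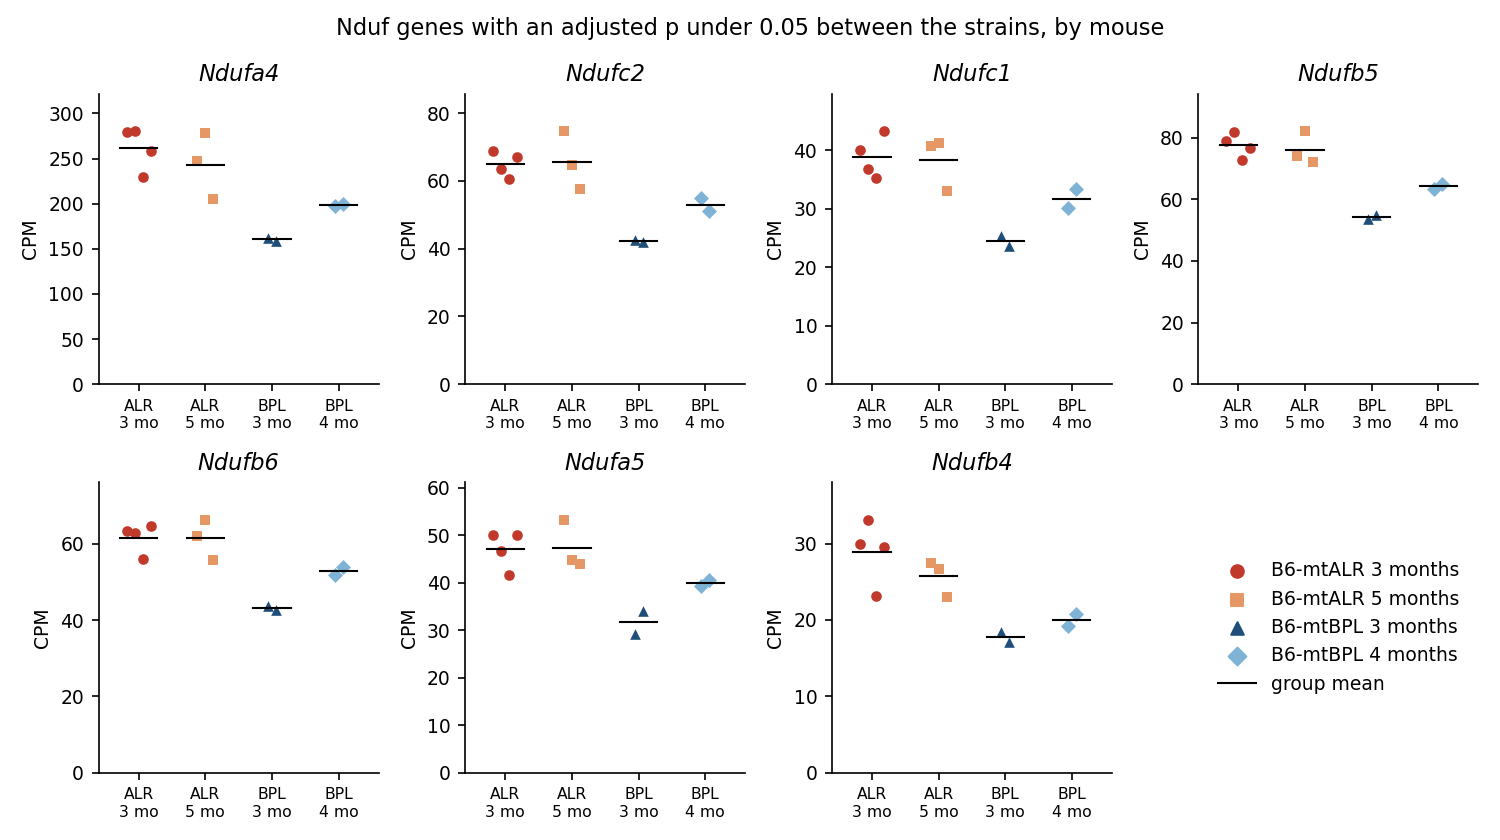
CPM of the 7 Nduf genes with an edgeR adjusted p-value under 0.05 between the strains, with 1 point per mouse, the 4 groups on the x axis and a line at each group mean, on axes that start at 0. The B6-mtALR mice of 3 months lie above the B6-mtBPL mice in all 7 panels, and the B6-mtBPL mice of 4 months lie above those of 3 months.

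Promoters were searched for motifs of factors known to act on respiratory genes. RefSeq promoters of GRCm38.p6 (250 bases before to 50 bases after the start) were matched by symbol for 40 of the 46 genes, with 42 promoters, and for 7 of the 7 genes above. The other 6, Ndufa2, Ndufs1, Ndufb9, Ndufaf6 and Ndufa4l2 among them, were not analysed here. The motif GCGCANGCG of NRF1, an activator of nuclear genes for respiration, was found on either strand in 26.2% of the 42 promoters and in 6.25% of all 32851 promoters. CCGGAAG of the ETS family, to which GABP belongs, was found in 14.3% against 8.86%, and AANATGGCG of YY1 in 19.0% against 2.38%. TCAAGGTCA of ESRRA was found in 0 of the 42 and in 0.423% of all. Among the 7 genes, Ndufb4 and Ndufa5 held the NRF1 motif, Ndufb6 the ETS motif and Ndufc1 the YY1 motif, while none of the 4 motifs was found in these windows of Ndufa4, Ndufc2 and Ndufb5. The 30 bases around each match are shown 5′ to 3′ on the strand of the gene with the match in capitals, as these carry all the matches of the 7 genes.
Ndufb4, chr16:37654540-37654569, minus strand: gagaagcagtGCGCACGCGcagaatacgcg
Ndufb4, chr16:37654428-37654457, minus strand: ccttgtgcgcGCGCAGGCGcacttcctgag
Ndufb4, chr16:37654371-37654400, minus strand: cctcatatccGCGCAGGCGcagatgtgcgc
Ndufa5, chr6:24527697-24527726, minus strand: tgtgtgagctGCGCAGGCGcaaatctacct
Ndufb6, chr4:40279635-40279664, minus strand: tcgtccttgttCTTCCGGtcccctccccta
Ndufc1, chr3:51408914-51408943, minus strand: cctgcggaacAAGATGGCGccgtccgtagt
The 3 matches of Ndufb4 begin 191, 79 and 22 bases before the RefSeq start, and that of Ndufa5 26 bases before the upstream one of its 2 starts. The ETS match of Ndufb6 is on the opposite strand, 232 bases before the start, and the YY1 match of Ndufc1 begins 23 bases after the start. A match is a description of the letters and does not show that the factor was bound.

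All 7 core subunits were higher in B6-mtALR mice, with a median log2 fold change of 0.17, but 5 were higher with the length trend removed and 2 on the TPM scale, where the median of all genes was -0.21. In the edgeR test 0 passed, with 2 at an unadjusted p-value under 0.05, which DESeq2 called. These 2 were Ndufv2, an iron-sulfur subunit of the NADH-oxidising module, with 103 ± 8.14 CPM against 77.9 ± 6.96 CPM (SD, n = 4 each, log2 fold change 0.49 ± 0.11, adjusted p = 0.0588), and Ndufs3 with 100 ± 9.38 against 82.7 ± 7.36 CPM (0.38 ± 0.12, adjusted p = 0.107). Ndufv2 was higher in each of the 7 B6-mtALR mice than in each B6-mtBPL mouse. Ndufv1, which binds NADH and the flavin, had 161 ± 17.1 against 157 ± 15.5 CPM, with a log2 fold change of 0.14 ± 0.12. For the iron-sulfur subunits Ndufs7 and Ndufs8 the log2 fold changes were 0.19 ± 0.14 and 0.17 ± 0.15.

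The lowest log2 fold changes were those of Ndufs1, Ndufaf7 and Ndufa4l2. Ndufs1 had 145, 122, 131 and 133 CPM in B6-mtALR mice of 3 months, 153, 118 and 144 CPM at 5 months and 127, 126, 136 and 143 CPM in B6-mtBPL mice (log2 fold change 0.07 ± 0.11, edgeR adjusted p = 0.753). Its strains overlapped throughout, and the difference turned sign without the age term. Ndufaf7 had 14.7, 14.8, 15 and 15.1 CPM, 23.0, 12.1 and 17.4 CPM, and 14.5, 13.9, 16 and 17.9 CPM in the same order (0.06 ± 0.11, adjusted p = 0.782). Its B6-mtALR mice of 3 months lay within the range of the B6-mtBPL mice, and those of 5 months spanned a wider one. Ndufa4l2 was the 1 gene with a lower value in B6-mtALR mice, at 0.467, 1.02, 0.458 and 0.849 CPM against 0.805, 0.797, 0.851 and 0.675 CPM in B6-mtBPL mice and 0.851, 0.739 and 0.803 CPM in B6-mtALR mice of 5 months (-0.21 ± 0.39, adjusted p = 0.784), so that no difference was detectable at this depth.

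Most of the genes that passed encode accessory subunits. All 29 were higher in B6-mtALR mice with a median log2 fold change of 0.42 (22 with the length trend removed and 26 on the TPM scale), and 6 of them passed the test, with 23 at an unadjusted p-value under 0.05. By place in the enzyme, 3 of 10 genes of the distal membrane arm passed (median 0.50), 2 of 9 of the proximal membrane arm (median 0.36) and 1 of 10 of the matrix arm (median 0.41). These medians became 0.17, 0.15 and 0.06 with the length trend taken out. Core and accessory subunits also differed in length, with a median of 1012 bases for the core against 709 bases for the distal membrane arm, 672 bases for the proximal membrane arm and 568 bases for the matrix arm.

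Several accessory subunits stood just outside the threshold. Ndufs4 of the NADH-oxidising module, loss of which causes Leigh syndrome, had 57.3 ± 4.33 against 43.8 ± 3.53 CPM (SD, n = 4 each), a log2 fold change of 0.48 ± 0.11 and an edgeR adjusted p of 0.0514. The strains did not overlap for Ndufs4, and with the length trend taken out it had the lowest unadjusted p of the 46 genes (0.38 ± 0.10, adjusted p = 0.153). Its transcripts are among the longest of the accessory subunits with 1534 bases. Ndufb2 had 49.9 ± 5.42 against 37.9 ± 4.79 CPM (0.55 ± 0.13, adjusted p = 0.0556). Ndufa1, a small subunit of the membrane arm, had 43.2 ± 5.61 against 35.6 ± 2.58 CPM (0.36 ± 0.13, adjusted p = 0.154), and its difference was -0.06 with the length trend taken out. Ndufa13, also known as Grim19, had 103 ± 13.8 against 81.3 ± 6.88 CPM (0.42 ± 0.14, adjusted p = 0.119).

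All 8 assembly factors were higher in B6-mtALR mice with a median log2 fold change of 0.21 (4 on the TPM scale), 0 passed with edgeR or DESeq2, and 2 had an unadjusted p-value under 0.05 with edgeR. Ndufaf4, which acts with Ndufaf3 early in assembly, had 27.5, 21.9, 31 and 21.7 CPM in B6-mtALR mice of 3 months and 19.0, 13.5, 11.3 and 16.7 CPM in B6-mtBPL mice. These groups were separate, while the B6-mtALR mice of 5 months had 18.0, 22.9 and 18.7 CPM and reached into the range of B6-mtBPL mice. The log2 fold change of Ndufaf4 was 0.64 ± 0.22 (SE, edgeR adjusted p = 0.138), and transcripts not annotated as coding held 51.9% to 69.5% of its counts. Ndufaf2, a paralog of Ndufa12 that acts late in assembly, had 8.88 ± 0.627 against 7.05 ± 1.51 CPM (SD, n = 4 each, 0.47 ± 0.18, adjusted p = 0.177). With the length trend taken out, 4 of the 8 assembly factors were higher and 4 lower, with a median of 0.03.

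**Figure D3:**
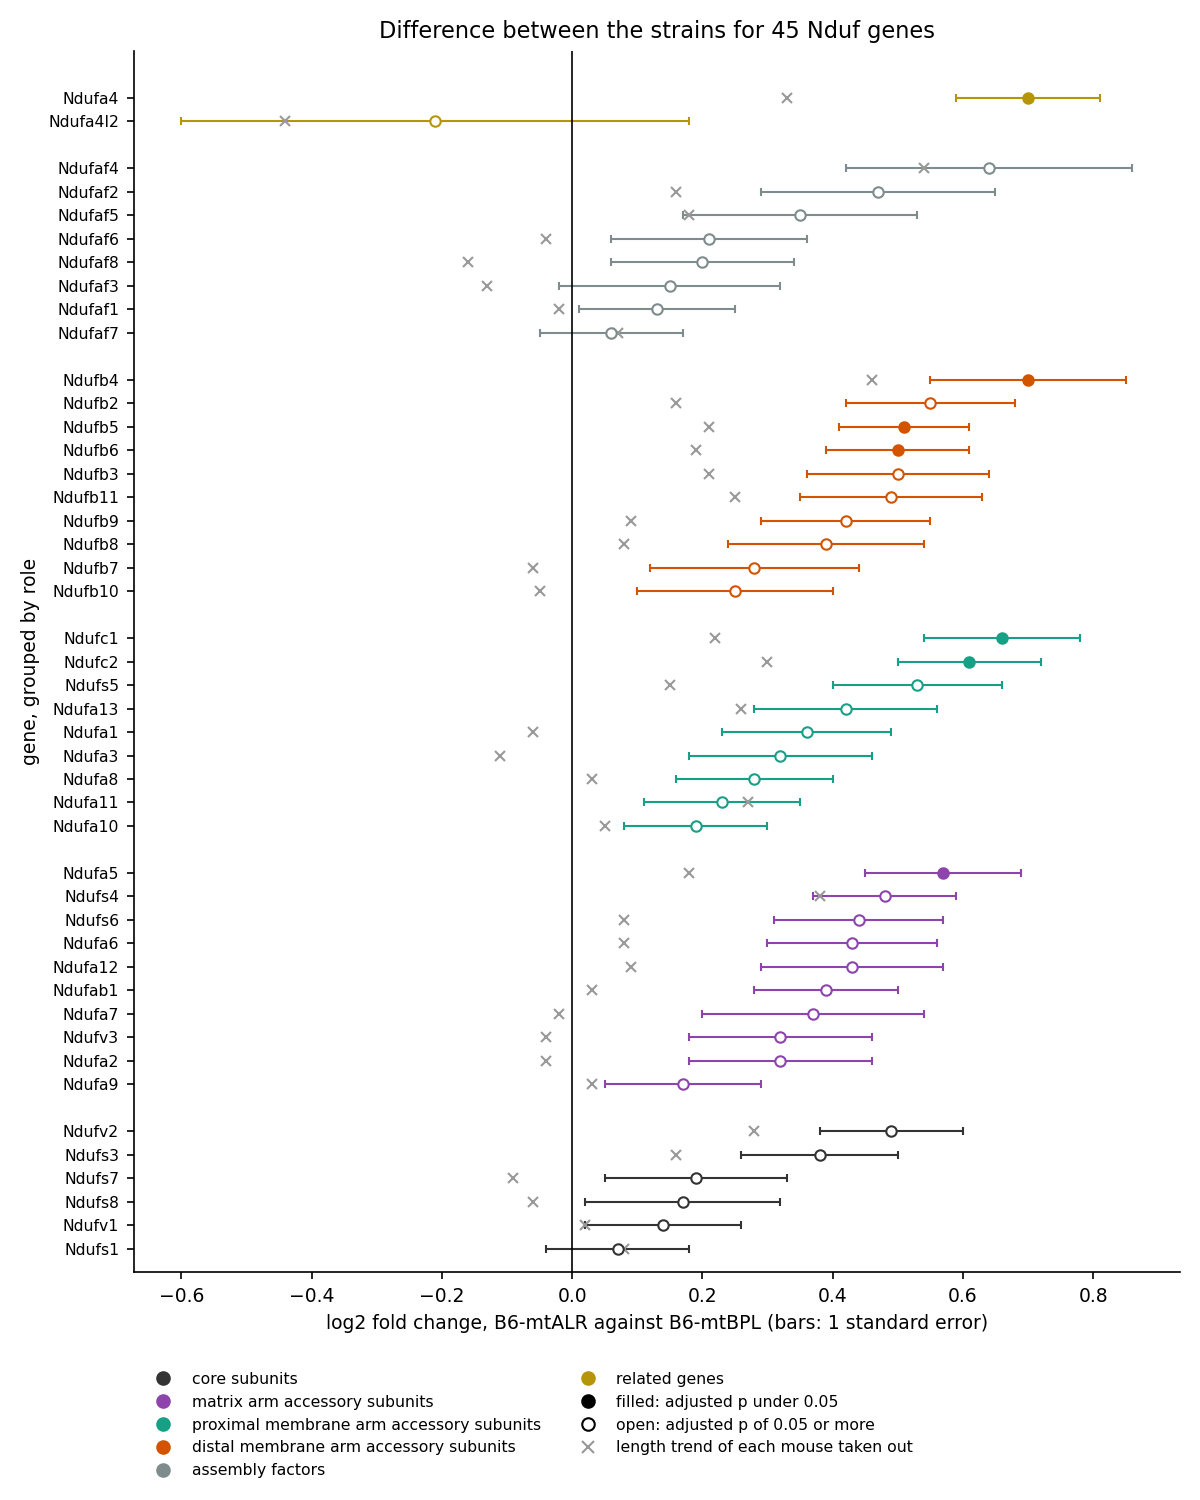
Log2 fold change of B6-mtALR against B6-mtBPL mice from the edgeR fit with age and strain (x axis, points with 1 SE) for 45 of the 46 Nduf genes grouped by role (y axis), with filled points for an adjusted p under 0.05 and grey crosses for the fit with the length trend of each mouse taken out. All points but that of Ndufa4l2 lie above 0, and most crosses lie closer to 0.

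Separation of the individual mice was counted as a measure that needs no fit, in scaled CPM with the length trend left in. The shares beside it are over genes of all lengths. In 11 of the 46 genes all 4 B6-mtALR mice of 3 months were above all 4 B6-mtBPL mice, where 5.67% of all genes tested showed this, and in 0 genes were they all below. Beside the 7 genes named above these were Ndufv2, Ndufb2, Ndufs4 and Ndufaf4. For the 3 B6-mtALR mice of 5 months this held in 19 of the 46 genes, against 5.02% of all genes, and for the B6-mtALR mice of both ages together in 9 genes, against 1.40%. The comparisons share the B6-mtBPL mice. Replicate 6 of B6-mtALR at 3 months was the lowest of its group in 39 of the 46 genes, and without it 29 genes were separate, against 10.2% of all genes.

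Over the genes together, the Nduf genes held 0.317%, 0.360%, 0.302% and 0.331% of the counts in B6-mtALR mice of 3 months (replicates 4 to 7) and 0.353%, 0.347% and 0.297% in those of 5 months. In B6-mtBPL mice the shares were 0.276%, 0.268%, 0.307% and 0.277% (replicates 1 to 4). The highest shares were those of B6-mtALR mice, and the ranges of the strains overlapped through replicate 3 of B6-mtBPL. In TPM, the 36 subunits summed to 6802 ± 442 (SD, n = 4) in B6-mtALR mice of 3 months, 7038 ± 456 (n = 3) in those of 5 months and 6265 ± 350 (n = 4) in B6-mtBPL mice. In bulk liver, fewer cells of a type and less RNA per cell cannot be told apart.

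The differences of the 46 genes ran with transcript length. Spearman's rho between length and log2 fold change was -0.46 over the 46 genes and -0.47 over all 13380 genes, as a description across genes, which are not independent replicates. Among all genes of 500 to 750 bases the median log2 fold change was 0.34, with 82.6% higher in B6-mtALR mice and 9.28% upregulated at an adjusted p under 0.05, and the 19 Nduf genes of this length had a median of 0.42 with 4 upregulated. Below 500 bases the medians were 0.37 for 178 genes and 0.55 for 5 Nduf genes. From 750 to 1000 bases they were 0.24 for 711 genes and 0.28 for 9 Nduf genes, and from 1000 to 1500 bases 0.16 for 1859 genes and 0.19 for 7 Nduf genes. The longest class that held Nduf genes, from 1500 to 3000 bases, gave 0.02 for 5473 genes and 0.18 for 6 Nduf genes, of which Ndufaf4 (0.64) and Ndufs4 (0.48) stood highest. The median of the Nduf genes was thus above that of all genes in each of the 5 classes, and the difference between them was not tested.

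**Figure D4:**
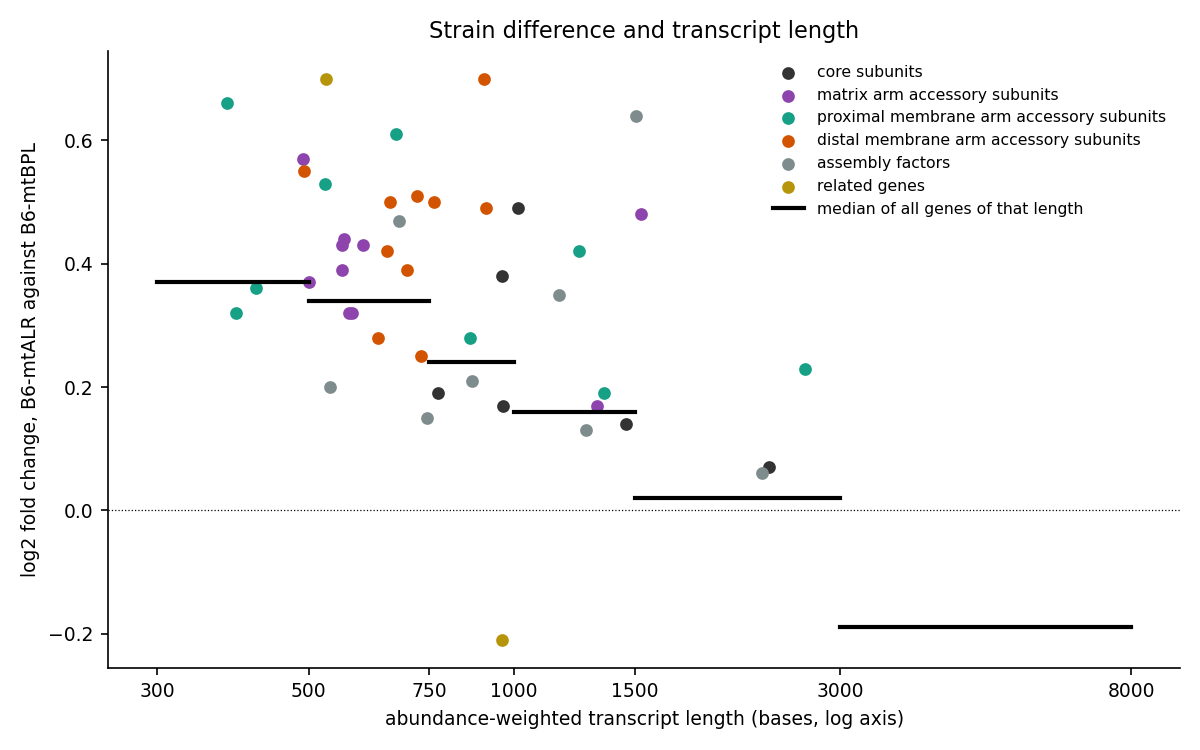
Log2 fold change of B6-mtALR against B6-mtBPL mice (y axis) by transcript length in bases (x axis, log axis) for 45 of the 46 Nduf genes, coloured by role, with bars at the median of all genes tested in 6 length classes, the outermost drawn to the last ticks. Medians of all genes fall from 0.37 below 500 bases to -0.19 above 3000 bases, where no Nduf gene lies.

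The level of the Nduf genes was also set beside the length slope of each mouse within one strain. Over the 7 B6-mtALR mice, the median of the 46 genes' log2 CPM relative to each gene's mean was 0.11, 0.23, -0.11 and 0.15 at 3 months (replicates 4 to 7) and 0.20, 0.19 and -0.02 at 5 months. It was lowest in the 2 mice with a positive length slope, and its Pearson's r with the slope was -0.95 and Spearman's rho -0.93 (n = 7), or r = -0.97 without those 2 mice (n = 5). Both measures come from the same libraries, and nearly all Nduf transcripts are shorter than the median of all genes tested. A positive slope by construction means lower levels of short genes, so a negative correlation was largely built in. These correlations are given as a description and are no separate evidence. The B6-mtBPL mice had -0.26 and -0.30 at 3 months and -0.05 and -0.11 at 4 months. With the length trend taken out, the relative level was 0.06, 0.07, -0.05 and 0.05 in B6-mtALR mice of 3 months, 0.02, 0.02 and 0.04 at 5 months and -0.06, -0.06, -0.02 and 0.01 in B6-mtBPL mice, so that the ranges of the strains overlapped.

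**Figure D5:**
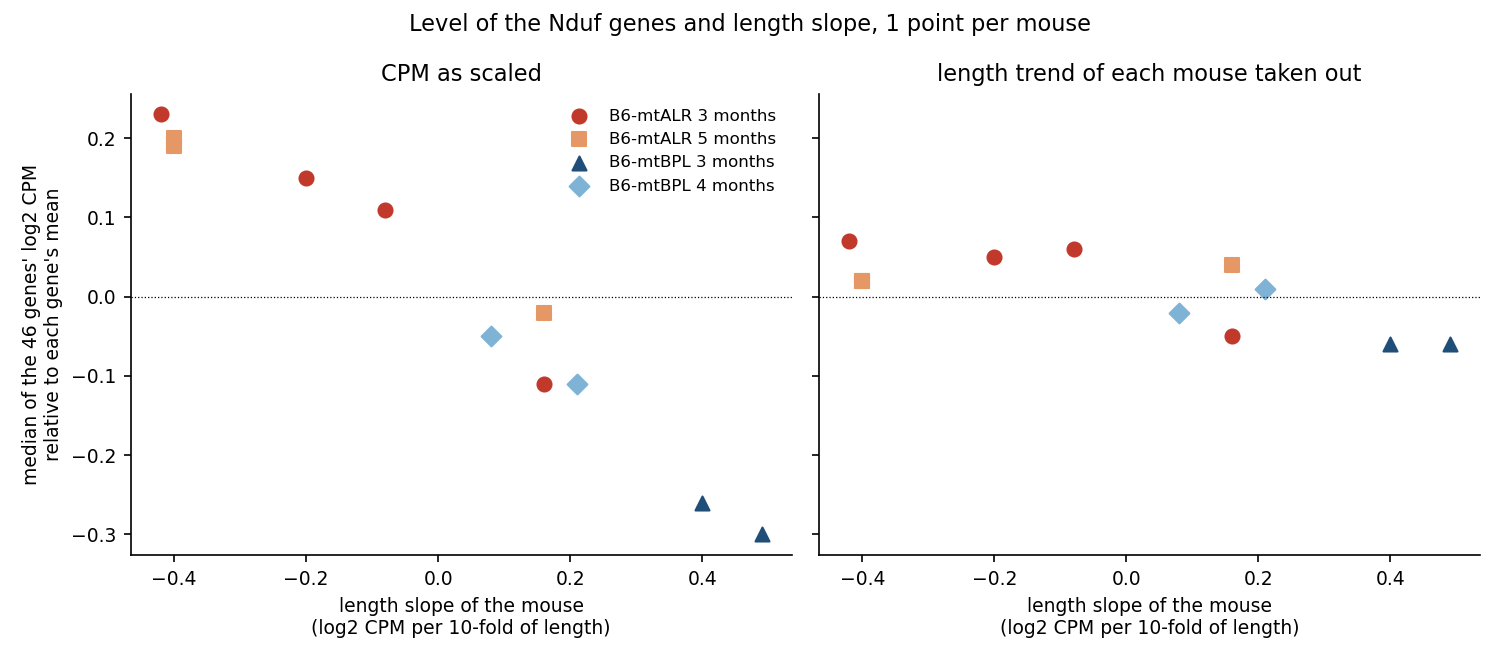
Median over the 46 Nduf genes of log2 CPM relative to each gene's mean (y axis) against the length slope of the mouse (x axis), with 1 point per mouse coloured by group, as scaled (left) and with the length trend of each mouse taken out (right). On the left the level runs from 0.23 in the B6-mtALR mouse with a slope of -0.42 to -0.30 in the B6-mtBPL mouse with a slope of 0.49, and on the right all mice lie between -0.06 and 0.07, where 2 points coincide at a slope of -0.40.

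The second question was whether the Nduf genes changed with age within a strain. In B6-mtALR mice, 5 against 3 months, edgeR called 0 of the 46 genes, where 0.793% of all genes tested passed, with 0 at an unadjusted p-value under 0.05, and DESeq2 also called 0. The median log2 fold change was 0.04 with 38 genes higher, and the range ran from -0.35 ± 0.16 for Ndufaf4 (adjusted p = 0.521) to 0.24 ± 0.19 for Ndufaf7 (adjusted p = 0.749). The direction rested on single mice, since 13 of 46 genes were higher without replicate 6 of 3 months and 19 without replicate 1 of 5 months. In 0 of the 46 genes were all 3 mice of 5 months above or below all 4 of 3 months, where 4.75% of all genes had them all above.

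In B6-mtBPL mice, 4 against 3 months, 0 of the 46 genes passed with edgeR or DESeq2, where edgeR called 0.117% of all genes. Of the 46, 43 were higher at 4 months with a median log2 fold change of 0.19, 9 had an unadjusted p-value under 0.05 with edgeR (19.6%, against 10.7% of all genes), and in 36 both mice of 4 months were above both of 3 months, where 22.3% of all genes showed this. Ndufb3, a distal membrane arm subunit, had 28.7 and 30.8 CPM at 3 months and 38.3 and 38.0 CPM at 4 months, with the lowest p of the 46 genes (0.36 ± 0.11, edgeR adjusted p = 0.390). Both pairs of mice were close to each other, and the 4-month values lay among those of B6-mtALR mice of 3 months (35.2 to 47.9 CPM). The length slope differed between these ages too, and with the length trend taken out 34 genes were higher with a median of 0.07 and 0 had an unadjusted p-value under 0.05. The age comparisons share mice with the strain comparison and cover different spans of months, and the difference between them was not tested.

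Transcripts of a type other than protein coding in the annotation, such as processed transcripts, retained introns and targets of nonsense-mediated decay, were compared as a share of the counts for 28 Nduf genes. The highest shares in B6-mtALR mice of 3 months were 65.4% ± 4.79 (SD, n = 4) for Ndufa10, mostly of a nonsense-mediated decay transcript, 62.3% ± 6.56 for Ndufaf4, 56.8% ± 2.53 for Ndufc1 and 56.3% ± 1.52 for Ndufa5. In Ndufs3 the share was 8.71% ± 1.28 in B6-mtALR mice of 3 months, 7.95% ± 2.12 in those of 5 months (n = 3) and 13.6% ± 3.35 (n = 4) in B6-mtBPL mice (exact permutation test of 4 against 4 mice, two-sided p = 0.0571). In Ndufb5 it was 0.547% ± 0.186 against 1.95% ± 0.384, separate in all mice (exact permutation p = 0.0286, the smallest that 4 against 4 mice can give). Adjusted over the 28 genes tested, both were at 0.3, and none of the shares passed. With 0.0286 as the smallest possible p, a share could pass only if many of the 28 genes reached it together. This outcome thus says little about the shares. When protein-coding transcripts alone were counted, some genes crossed the threshold of the strain comparison in either direction. Ndufab1, the mitochondrial acyl carrier protein, passed with 0.55 ± 0.11 (edgeR adjusted p = 0.0415) in place of 0.39 ± 0.11 (adjusted p = 0.0937). Ndufa5 no longer passed.

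Genes that work with the Nduf genes were compared from lists. All 7 mtDNA-encoded subunits were higher in B6-mtALR than in B6-mtBPL mice of 3 months with a median log2 fold change of 0.56, each at an unadjusted p-value under 0.05, and 1 passed. This was mt-Nd3, at 289, 179, 267 and 250 CPM in B6-mtALR mice of 3 months and 102, 94.6, 95.2 and 155 CPM in B6-mtBPL mice (1.32 ± 0.23, edgeR adjusted p = 0.0302). At 5 months it had 207, 298 and 127 CPM, the lowest of which lay within the range of the B6-mtBPL mice. The mutated genes gave 0.55 ± 0.19 for mt-Nd2 (adjusted p = 0.144) and 0.42 ± 0.16 for mt-Nd5 (adjusted p = 0.158). With the length trend taken out the median was 0.36 and 0 passed. Their summed share of counts was 2.44% ± 0.312 at 3 months (SD, n = 4) and 1.82% ± 0.198 at 5 months (n = 3) in B6-mtALR mice, and 1.84% ± 0.151 in B6-mtBPL mice (n = 4). Single B6-mtALR mice of 3 and 5 months overlapped in this share (1.99% against 2.03%), as did those of 3 months and B6-mtBPL mice (1.99% against 2.05%). In the edgeR age comparison of B6-mtALR mice 0 of the 7 genes passed (3 at an unadjusted p-value under 0.05, and 1 called by DESeq2). The Nduf share was 0.328% ± 0.0247, 0.332% ± 0.0307 and 0.282% ± 0.0171 in the same order. Neighbouring mtDNA genes overlap in part, and reads of mt-Nd4 and mt-Nd4l may not be told apart.

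Of 12 assembly genes without the Nduf prefix, 11 were tested, 10 were higher in B6-mtALR mice (median 0.21), and 1 passed. Tmem70, which acts in the assembly of ATP synthase and complex I, had 45.7 ± 2.57 against 32.9 ± 2.89 CPM (SD, n = 4 each, 0.56 ± 0.11, edgeR adjusted p = 0.0409). At 5 months it had 47.0, 43.8 and 34.7 CPM, the lowest of which lay within the range of the B6-mtBPL mice (29.1 to 36.0 CPM). Over 23 alternative fits the log2 fold change of Tmem70 ran from 0.28 to 0.65. Of 11 regulators of mitochondrial genes, 0 passed with edgeR and 2 with DESeq2, 5 had an unadjusted p-value under 0.05, 3 were higher and 8 lower. Esrra, a nuclear receptor that activates respiratory genes, had 26.1 ± 4.14 against 17.3 ± 2.98 CPM (0.59 ± 0.19, adjusted p = 0.121) and Nrf1 had 9.23 ± 0.839 against 10.6 ± 2.68 CPM (-0.46 ± 0.16, adjusted p = 0.140), and DESeq2 called Esrra alone of these 2 (adjusted p = 0.0469). For Nrf1 the B6-mtBPL mice had 13.8 and 11.5 CPM at 3 months and 7.49 and 9.78 CPM at 4 months. The B6-mtALR mice of 3 months had 8.24 to 10.3 CPM, so they were lower only than the B6-mtBPL mice of 3 months. Of 8 genes of mitochondrial content such as Cs and Vdac1, 8 were higher with a median of 0.24, and 0 passed with edgeR and 2 with DESeq2, with 4 at an unadjusted edgeR p-value under 0.05.

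Some markers of other liver cells also differed between the strains. The summed level of 5 endothelial markers was 190 to 220 CPM in B6-mtALR mice of 3 months, 217 to 251 CPM at 5 months and 242 to 317 CPM in B6-mtBPL mice, and 3 of the 5 were lower and 2 higher in B6-mtALR mice. Stab2 (-1.36 ± 0.19) and Kdr (-0.78 ± 0.14) were downregulated (edgeR adjusted p = 0.0211 and 0.0302), but neither passed with the length trend removed (-0.96 ± 0.16 and -0.49 ± 0.13, adjusted p = 0.0822 and 0.158). These fits set B6-mtALR against B6-mtBPL mice of 3 months, where Stab2 had 73.5 and 97.4 CPM and Kdr 91.2 and 99.9 CPM. The B6-mtBPL mice of 4 months were lower, with 42.4 and 49.8 CPM for Stab2 and 74.3 and 73.8 CPM for Kdr. B6-mtALR mice of 3 months had 27.2 to 41.6 CPM and 46.1 to 65.4 CPM. Between the strains, Pecam1 was at -0.43 ± 0.15, Clec4g at 0.10 ± 0.13 and Lyve1 at 0.16 ± 0.35. That of 5 stellate cell markers was 246 to 300 CPM, 286 to 347 CPM and 303 to 415 CPM in the same order, with 4 lower, 1 higher and Reln downregulated (-1.24 ± 0.17, adjusted p = 0.0206, and -1.07 ± 0.14, adjusted p = 0.0496, with the length trend removed). Kupffer cell markers (6 genes) spanned 336 to 377 CPM in B6-mtALR mice of 3 months and 275 to 368 CPM in B6-mtBPL mice, and 0 passed. Sums of the cholangiocyte (46.6 to 113 CPM), lymphocyte (9.24 to 22.7 CPM) and erythroid (142 to 367 CPM) markers overlapped between the strains. The sums of hepatocyte markers overlapped, with Cps1 downregulated (-0.76 ± 0.17, adjusted p = 0.0478, and -0.49 ± 0.16, adjusted p = 0.221, with the length trend removed). The other hepatocyte markers were mixed between the mice of 3 months. Apob was lower in B6-mtALR mice (3551 to 4895 against 6546 and 6589 CPM) and Apoa1 higher (5947 to 6508 against 5773 and 4804 CPM). Alb, Ttr and Cyp2e1 overlapped between the strains at this age. The part of these cells in the results for the Nduf genes was not tested.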

How the data were processed

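Total RNA of the livers was enriched for polyadenylated RNA and read as single ends on an Illumina instrument. The authors quantified transcripts with kallisto 0.44.0 (mm10, per the submitters' processing notes, with the transcript release not given in the sources used here) and deposited for each mouse transcript by transcript, estimated counts without normalisation beside TPM. The deposited lengths served for gene lengths.

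Of 96626 transcripts, 95301 (98.6%) matched GENCODE M21, with at least 99.6% of the counts of each mouse. The estimated counts were summed per gene and rounded. Genes were kept by filterByExpr (minimum count 10, minimum total 15), scaled by TMM and tested by quasi-likelihood in edgeR 4.0.16 (R 4.3.3), with Benjamini-Hochberg adjustment over all genes and 0.05 as the threshold. The strain comparison held age and strain as terms and the age comparisons age alone. Standard errors came from the quasi-likelihood statistic. The length trend was a lowess curve per mouse (span 0.3) of log2 CPM, relative to each gene's mean, on log10 length, used as an offset. DESeq2 1.42.0, RLE scaling, no filter, limma-trend (limma 3.58.1) on log2(TPM + 0.5), other sets of mice and terms, protein-coding transcripts alone, a scale without mtDNA genes and the omission of each mouse were alternatives. Fits were tested on simulated data. Shares of counts were compared by exact permutation tests.

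The named genes were those with an adjusted p-value under 0.05 in the strain comparison (up to 8), the 3 largest and 3 smallest log2 fold changes, the core subunits, Ndufa1, Ndufa13, Ndufa4, Ndufa4l2, the 3 highest and 3 lowest by TPM, genes that passed an age comparison (none did), and up to 3 per list that passed. The others named were chosen after their values were seen. Members, lists and tests were chosen with earlier results of these data known. The labels name no batch and do not say that the mice came from separate litters, so p-values measure the spread between these mice. The extraction protocol names other strains, and the strain fields were used. The values of 1 of the 46 genes are not reported here, while counts and medians over groups include it.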

Additional observations from a re-analysis of the deposited data

Results flagged for a closer look

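Among the 46 Nduf genes, the highest or lowest mouse lay far from the other 3 of its group in 2 of the 92 groups of 4 mice examined. Chance alone gives about 1 in 20. In Ndufaf2, replicate 5 of B6-mtALR at 3 months had 7.95 CPM against 9.12 to 9.30 CPM in the others, a gap of 0.867 of the range. In Ndufa10, a subunit of the proximal membrane arm, replicate 6 of B6-mtALR at 3 months had 102 CPM against 122 to 125 CPM, a gap of 0.870 of the range. Neither gene passed the strain comparison.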

How the results depend on the processing

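Counts are given as all genes called and then Nduf genes called in the strain comparison (318 and 7 as reported). They were 1057 and 18 with DESeq2, 11 and 0 with the length trend taken out, 198 and 2 without the age term, 572 and 3 with limma-trend on TPM, 14 and 0 with all 11 mice and age, and 0 and 0 with all 11 mice without age, where edgeR gave 28 Nduf genes an unadjusted p-value under 0.05. The 6 mice of 3 months alone gave 3 Nduf genes, with the count of all genes not given here, so no share stands beside it. Both fits chosen after the data were seen took the length trend out, without age (29 and 0) and with all 11 mice and age (4 and 0). The median log2 fold change of 0.37 moved to 0.08 with the length trend out, to 0.04 and 0.03 in those added fits, and to 0.14 on TPM, where that of all genes was -0.21. RLE scaling, no filter, protein-coding transcripts alone and a scale without mtDNA genes gave 5 to 7 Nduf genes called and 45 of 46 higher. The counts of all genes are not given here for these fits either. The causes of these shifts were not tested.

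With each mouse left out in turn, 0 to 572 genes, 0 to 15 Nduf genes and a median of 0.32 to 0.44 were found, with 45 of 46 higher each time. In B6-mtALR mice by age, 106 genes became 302 with DESeq2 and 38 to 120 with a mouse left out, and the Nduf genes higher (38) were 21 with the length trend out and 13 to 42 with a mouse left out. In B6-mtBPL mice by age, 16 genes became 187 with DESeq2, 8 with the length trend out and 7 to 339 with a mouse left out, which leaves 1 mouse at an age that is assumed to vary like the others.

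Signs turned in genes with small differences. With the length trend out, Ndufs7 fell to -0.09, Ndufs8 to -0.06 and Ndufa1 to -0.06. On TPM, Ndufaf7 was -0.15, Ndufs1 -0.20, Ndufs7 -0.06, Ndufs8 -0.07 and Ndufv1 -0.13. Without age, Ndufaf7 was -0.06 and Ndufs1 -0.0035, and with all 11 mice and age Ndufaf7 was -0.01. In the added fit without age and length trend, Ndufaf7 was -0.06, Ndufs7 -0.06, Ndufs8 -0.04, Ndufv1 -0.06 and Ndufa1 -0.04. In that with all 11 mice, Ndufaf7 was -0.01, Ndufs7 -0.04, Ndufs8 -0.03, Ndufv1 -0.05 and Ndufa1 -0.04.

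The replicate numbers gave no sign of pairing the mice, as deviations of mice that share a number correlated by -0.03, -0.14, 0.07 and -0.05. Deviations of the B6-mtBPL mice of one age mirror each other, so these values are not independent and cannot exclude a pairing. A replicate block over the 11 mice, which leaves 4 pairs of unequal age to the strain term, gave 0 genes and 0 Nduf genes called, with a median of 0.30 and 20 Nduf genes at an unadjusted p-value under 0.05. With the replicate block and the length trend taken out, 0 genes and 0 Nduf genes passed, with a median of 0.07, and Ndufs7 was -0.02, Ndufs8 -0.03 and Ndufa1 -0.02.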
